A study of Homo sapiens with 8 samples.

Results

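The U1 small nuclear ribonucleoprotein (U1 snRNP) and the proteins that help it choose alternative splice sites were followed here in U251 cells through the transcript levels of 9 genes. SNRNP70, SNRPA and SNRPC encode the U1-specific core proteins, PRPF39 encodes an auxiliary U1 protein, LUC7L, LUC7L2 and LUC7L3 form the LUC7 family, and TIA1 and TIAL1 are U-rich RNA-binding proteins. The genes were selected by name from the 61906 genes listed, with the change of PRPF39 between LLY-283 and vehicle already known. Their values in that comparison are therefore given as a description, with counts of calls but no p-value of a single gene, and all 9 genes were expressed above 20 TPM in every library.

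U251 cells are an established line from a human glioblastoma, and their genotype was labelled WT in both groups. LLY-283 inhibits PRMT5, an arginine methyltransferase whose symmetric dimethyl marks are found on Sm proteins and many other splicing factors. The 4 vehicle libraries came from cultures that received DMSO and the 4 LLY-283 libraries from cultures that received 100 nM LLY-283, in each case for 24 h and in medium with 10% serum. The labels name the libraries biological replicates 1 to 4 without saying whether they came from separate experiments, so the spread reported is that between these libraries of 1 cell line. Gene expression was deposited as TPM (transcript abundance scaled to a common library total), in which transcript length and library total have been divided out. A TPM value is a share of the mRNA, so fewer transcripts of a gene and more RNA from other genes cannot be told apart, and the number of reads behind a value is unknown.

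U1 snRNP recognises the start of an intron. The U1 small nuclear RNA (snRNA) pairs with the 5′ splice site through its own 5′ end, the SNRNP70 and SNRPA products hold stem loops of the RNA, and the SNRPC product stabilises the pairing. In yeast the counterparts of PRPF39 and the LUC7 proteins are permanent U1 subunits, whereas in human cells they join more loosely and favour particular 5′ splice sites. TIA1 and TIAL1 bind U-rich stretches just downstream of weak 5′ splice sites and recruit U1, TIA1 through the SNRPC product. The U1 snRNA is shown because its first bases are what all of these proteins help to place on the intron. The sequence of RNU1-1 (GENCODE 44, GRCh38, chr1:16514122-16514285, minus strand, 164 bases) is written in DNA letters, with capitals for bases 3 to 10, which pair with the 5′ splice site.
RNU1-1: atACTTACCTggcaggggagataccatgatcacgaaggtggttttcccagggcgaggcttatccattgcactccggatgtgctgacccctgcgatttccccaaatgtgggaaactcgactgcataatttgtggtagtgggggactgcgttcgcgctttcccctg

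The U1 snRNA itself was not measured usefully, because the libraries were made from RNA captured through its poly(A) tail, which U1 snRNA lacks. The annotation names 143 U1 snRNA genes and pseudogenes, of which 120 were listed at 0 in all 8 libraries. In vehicle libraries RNU1-1 had 61.31, 9.91, 9.95 and 14.27 TPM, and in the LLY-283 libraries 4.56, 5.88, 19.83 and 4.38 TPM. The groups overlapped and each contained 1 library far above the others. In all, 8 genes with the transcript sequence printed above held exactly these values, since RSEM divides reads among identical copies.

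Of the 9 genes, 2 passed an adjusted p-value under 0.05 (limma on log2(TPM + 0.1), Benjamini-Hochberg over 14478 genes) as higher with LLY-283, PRPF39 and LUC7L2, beside 8.61% of all genes tested. None passed as lower, beside 17.6% of all genes, and 3 of the 9 had an unadjusted p-value under 0.05, beside 38.6% of all genes. PRPF39 was the only 1 of the 9 that passed with a change above 1.5-fold, beside 0.394% of all genes as higher and 3.48% as lower. For 2 genes the groups did not overlap, with PRPF39 above and LUC7L below, against 9.63% and 19.6% of all genes. Nothing is read from these counts, since the comparison was in view when the genes were chosen. The 9 genes had a median log2 fold change of 0.01, and all genes tested one of -0.05. Over 20 settings of the comparison, the one used and 19 alternatives, PRPF39 was called higher in 20 and LUC7L2 in 11.

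**Figure D1:**
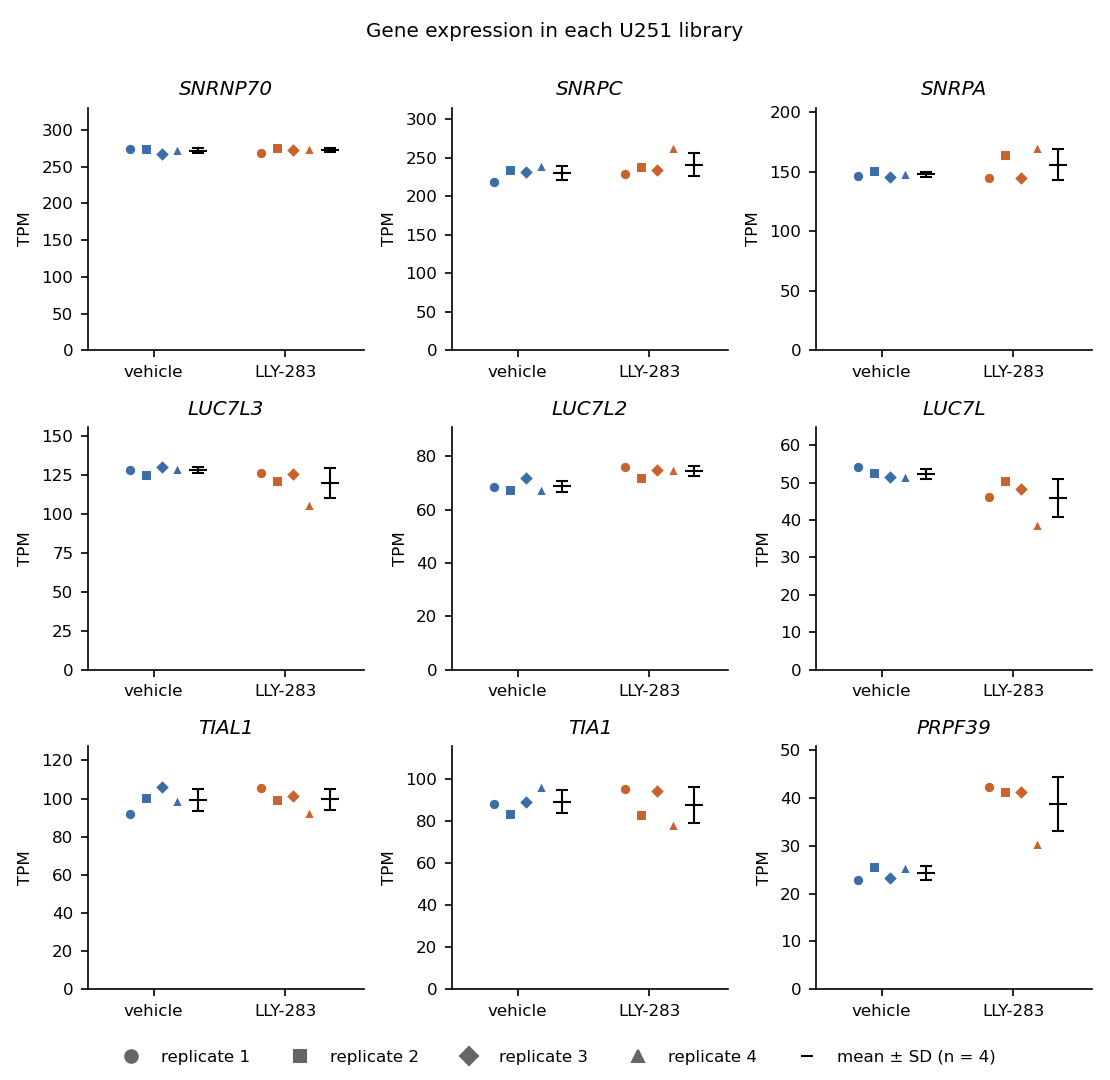
TPM of the 9 genes in each library, on axes that start at 0, with symbols for replicates 1 to 4 and the mean ± SD of 4 libraries in black. PRPF39 lies at 22.94 to 25.66 TPM with vehicle and at 30.31 to 42.38 TPM with LLY-283, whereas SNRNP70 stays between 267.93 and 275.38 TPM in all 8 libraries.

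Among the core proteins, the transcript level of SNRNP70 was the steadiest. SNRNP70 (ENSG00000104852, chr19:49085419-49108605, plus strand, 10 exons) had 273.91, 274, 267.93 and 272.08 TPM with vehicle and 268.47, 275.38, 272.31 and 273.66 TPM with LLY-283. The ranges lay on top of each other, and the log2 fold change was 0.00 (standard error 0.022), or 0.062 (standard error 0.029) with median-of-ratios scaling. SNRPC (ENSG00000124562, chr6:34757505-34773857, plus strand, 6 exons) had 218.07, 233.42, 231.67 and 239.2 TPM with vehicle and 229.45, 238.28, 233.84 and 262.5 TPM with LLY-283. Apart from replicate 4, the LLY-283 values of SNRPC fell inside the vehicle range, and the log2 fold change was 0.06 (standard error 0.046). SNRPA (ENSG00000077312, chr19:40750637-40765389, plus strand, 6 exons) had 146.26, 150.56, 145.48 and 148.22 TPM with vehicle and 144.99, 163.71, 144.41 and 169.79 TPM with LLY-283. The LLY-283 libraries split here, with replicates 2 and 4 above and replicates 1 and 3 just below the vehicle range, so that the log2 fold change of 0.07 (standard error 0.053) was close to its error. Without LLY-283 replicate 4 the log2 fold changes were 0.02 for SNRPC and 0.03 for SNRPA. With median-of-ratios scaling they were 0.122 and 0.133, and with the trend on GC content and length removed 0.121 and 0.106, and SNRPC passed as higher when a replicate block was added to that removal. Only SNRPC has pseudogene copies named after its symbol, 18 in number, of which 12 were at 0 in all libraries and none exceeded 1.58 TPM. Copies under other names were not searched for. How many reads were divided between them and SNRPC was not measured. The 5′ end of SNRPA overlaps ACTMAP on the opposite strand by 917 bases, and ACTMAP was expressed at 11.9 TPM with vehicle and 9.92 TPM with LLY-283.

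PRPF39 behaved differently from the core. PRPF39 (ENSG00000185246, chr14:45084107-45116282, plus strand, 14 exons) had 22.94, 25.66, 23.27 and 25.46 TPM with vehicle. With LLY-283 it had 42.38, 41.32, 41.31 and 30.31 TPM, so that every LLY-283 library lay above every vehicle library and replicate 4 lay between the vehicle libraries and the other LLY-283 libraries. The mean was 24.3 ± 1.43 TPM with vehicle and 38.8 ± 5.70 TPM with LLY-283 (SD, n = 4 each), a 1.58-fold change on the log2(TPM + 0.1) scale (log2 fold change 0.66, standard error 0.102), which ranked 138 from the top of the 14478 genes. Without LLY-283 replicate 4 the log2 fold change was 0.775, and without any other single library it lay between 0.615 and 0.687. Within each library, PRPF39 amounted to 8.38%, 9.36%, 8.69% and 9.36% of the TPM of SNRNP70 with vehicle and to 15.8%, 15.0%, 15.2% and 11.1% with LLY-283. The ratio of PRPF39 to SNRNP70 was 8.95% ± 0.496 with vehicle and 14.3% ± 2.15 with LLY-283 (SD, n = 4 each), without overlap. Since SNRNP70 was steady, this ratio restates the values of PRPF39 and is no further result. The corresponding ratios of the core proteins overlapped between groups, with SNRPC at 84.8% ± 3.63 and 88.4% ± 5.0 and SNRPA at 54.3% ± 0.650 and 57.1% ± 4.32 of SNRNP70 (SD, n = 4 each).

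The 3′ end of PRPF39 overlaps FKBP3, which encodes a peptidyl-prolyl isomerase and lies on the opposite strand, by 684 bases. Whether reads were counted by strand is not stated, so reads from the shared stretch cannot be assigned with certainty. FKBP3 had 144.26 to 154.79 TPM with vehicle and 121.87 to 127.63 TPM with LLY-283 (log2 fold change -0.26, adjusted p = 0.000433, limma), the direction opposite to that of PRPF39. The small nucleolar RNA genes SNORD58 and SNORD127 lie inside PRPF39 and were listed at 0 in all libraries. GENCODE 44 annotates 12 transcripts of PRPF39, of which 2 are coding, 5 are subject to nonsense-mediated decay and 5 retain an intron. Gene-level TPM adds these transcripts together, so the values of PRPF39 do not tell coding from non-coding isoforms.

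In the LUC7 family, the fold changes had both signs and were small. The LUC7 proteins bear zinc fingers that contact the U1 snRNA and 5′ splice site duplex, followed by a tail rich in arginine and serine. LUC7L2 (ENSG00000146963, chr7:139340359-139423457, plus strand, 10 exons) had 68.46, 67.32, 71.81 and 67.32 TPM with vehicle and 75.81, 71.69, 75.04 and 74.99 TPM with LLY-283. Vehicle replicate 3 lay just above LLY-283 replicate 2, and the other LLY-283 values exceeded all vehicle values (log2 fold change 0.11, standard error 0.033). With median-of-ratios scaling the log2 fold change of LUC7L2 was 0.174. LUC7L (ENSG00000007392, chr16:188969-229463, minus strand, 10 exons) had 54.02, 52.47, 51.36 and 51.41 TPM with vehicle and 46.04, 50.48, 48.15 and 38.67 TPM with LLY-283. Its LLY-283 values all lay below the vehicle values, lowest in replicate 4, but LUC7L did not pass the threshold (log2 fold change -0.20, standard error 0.073). Without LLY-283 replicate 4 the difference of LUC7L shrank to -0.118 and the error to 0.037, and LUC7L then passed as lower, as it did without LLY-283 replicate 2 (-0.246). LUC7L3 (ENSG00000108848, chr17:50719565-50756219, plus strand, 10 exons) had 128.24, 125.01, 129.57 and 128.57 TPM with vehicle and 126.19, 120.82, 125.34 and 105.65 TPM with LLY-283. The LUC7L3 groups overlapped, with LLY-283 replicate 4 well below the rest, and the log2 fold change was -0.10 (standard error 0.053), or -0.043 without that library. It was -0.041 with median-of-ratios scaling. With the GC and length trend removed it was -0.137 (standard error 0.035), and LUC7L3 then passed as lower.

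Because a ratio within a library does not depend on the scaling between libraries, the members of the family were also set against each other. The ratio of LUC7L2 to LUC7L was 1.27, 1.28, 1.40 and 1.31 with vehicle and 1.65, 1.42, 1.56 and 1.94 with LLY-283. The groups did not overlap, with the smallest gap between vehicle replicate 3 and LLY-283 replicate 2, and the mean moved from 1.31 ± 0.058 to 1.64 ± 0.220 (SD, n = 4 each). LUC7L2 made up 27.6% ± 0.548 of the summed TPM of the 3 LUC7 genes with vehicle and 31.1% ± 2.10 with LLY-283, LUC7L3 51.4% ± 0.423 and 49.8% ± 1.2, and LUC7L 21.0% ± 0.574 and 19.1% ± 1.33 (SD, n = 4 each). The groups did not overlap for the shares of LUC7L2 and LUC7L3 and overlapped for LUC7L. The ratio and the shares are built from the TPM values given above, so their separation is no further result. Among single genes, 9.63% lay above and 19.6% below without overlap, and the share among pairs of genes was not computed. The sum of the 3 genes, 248.9 ± 3.53 TPM with vehicle and 239.7 ± 13.8 TPM with LLY-283 (SD, n = 4 each), overlapped as well. LLY-283 replicate 4 was the extreme LLY-283 library in each of these values, and without it the LLY-283 means were 1.54 for the ratio of LUC7L2 to LUC7L, 30.1%, 50.3% and 19.6% for the shares of LUC7L2, LUC7L3 and LUC7L, and 246.5 TPM for the sum, with the same groups overlapping (a setting chosen after seeing the data).

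LUC7L2 shares nearly all of its length with a readthrough gene, FMC1-LUC7L2, which overlaps it by 81240 bases on the same strand, so that RSEM had to divide reads between them. FMC1-LUC7L2 had 22.79, 21.28, 22.06 and 21.17 TPM with vehicle and 26.63, 27.36, 24 and 23.11 TPM with LLY-283. It was higher in every LLY-283 library (log2 fold change 0.21, adjusted p = 0.0294, limma), although it passed in 13 of 20 settings only. FMC1, a mitochondrial assembly factor gene that overlaps the start of LUC7L2 by 5970 bases, was also higher (log2 fold change 0.34, adjusted p = 0.0279, limma), though its groups overlapped and it passed in 12 of 20 settings. Counting the readthrough gene with LUC7L2 gave a ratio to LUC7L of 1.73 ± 0.066 with vehicle and 2.20 ± 0.252 with LLY-283 (SD, n = 4 each), again without overlap. This ratio too is built from values already given. An antisense gene inside LUC7L2 and a gene inside LUC7L3 were below 1 TPM on average.

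The stretches upstream of LUC7L and LUC7L2 are shown because these close relatives had fold changes of opposite sign. They are the parts of the RefSeq promoter entries (GRCh38.p14) that lie before the gene starts of GENCODE 44, at chr16:229464-229699 on the minus strand for LUC7L (236 bases) and chr7:139340222-139340358 on the plus strand for LUC7L2 (137 bases), and neither overlaps an annotated exon. The LUC7L2 stretch lies in an intron of FMC1. LUC7L2 has another promoter entry, at chr7:139359644-139359893, which lies inside the gene and is not shown. Capitals mark a match to CCGGAAG, the core of an ETS factor motif, on either strand.
LUC7L: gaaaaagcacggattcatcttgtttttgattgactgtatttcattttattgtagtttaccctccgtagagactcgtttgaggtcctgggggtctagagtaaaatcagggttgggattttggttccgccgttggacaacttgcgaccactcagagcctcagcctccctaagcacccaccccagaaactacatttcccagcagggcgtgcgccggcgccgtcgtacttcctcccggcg
LUC7L2: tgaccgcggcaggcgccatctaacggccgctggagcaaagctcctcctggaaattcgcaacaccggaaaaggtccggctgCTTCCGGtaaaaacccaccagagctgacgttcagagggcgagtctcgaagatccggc
Of the 9 genes, 8 were matched in the promoter table, and all 250 bases upstream of each RefSeq start were searched on both strands for 4 motifs. PRPF39 had no entry, so the motif counts leave it out. The CCAAT box, CCAAT, was found in 3 of the 8 genes and in 32.0% of 35116 promoters. The GC box, GGGCGG, was found in 6 genes and in 42.6% of promoters, the ETS core in 2 genes and in 8.52%, and the TATA box, TATAAA, in 2 genes and in 10.7%. LUC7L and TIAL1 held none of the 4 motifs, and LUC7L2, with 2 entries, held the CCAAT box and the ETS core in the entry shown in part and GC boxes in the other. A gene was counted if any of its entries held the motif, and LUC7L2 and TIA1 have 2 entries each, whereas the share over all promoters is per entry, so the counts and shares are not directly comparable. These matches describe the letters in the windows and carry no statement about binding.

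TIA1 and TIAL1 did not separate the groups. TIA1 (ENSG00000116001, chr2:70209444-70248660, minus strand, 13 exons) had 88.17, 83.46, 89.22 and 96.23 TPM with vehicle and 95.37, 82.89, 94.14 and 78.05 TPM with LLY-283. TIAL1 (ENSG00000151923, chr10:119571802-119597029, minus strand, 12 exons) had 91.66, 100.44, 106.12 and 98.48 TPM with vehicle and 105.53, 99, 101.1 and 92.65 TPM with LLY-283. Both ranges overlapped widely, replicate 4 was the lowest LLY-283 library for both genes, and the log2 fold changes were -0.03 (standard error 0.069) for TIA1 and 0.01 (standard error 0.052) for TIAL1. The ratio of TIAL1 to TIA1 was 1.11 ± 0.096 with vehicle and 1.14 ± 0.060 with LLY-283 (SD, n = 4 each). The signs for TIA1, TIAL1 and SNRNP70 turned when single libraries were left out, to 0.024 for TIA1 without LLY-283 replicate 4, -0.031 for TIAL1 without vehicle replicate 1 and -0.0047 for SNRNP70 without vehicle replicate 3, so no direction is given for them. TIA1 lies almost wholly within the span of C2orf42 on the same strand, over 39172 bases, and C2orf42 was expressed at 10.7 TPM with vehicle and 9.61 TPM with LLY-283.

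TPM is given per transcript length, so the levels of the genes can be ordered. In vehicle-treated cells the order was SNRNP70 (272.0 ± 2.84 TPM), SNRPC (230.6 ± 8.95), SNRPA (147.6 ± 2.27), LUC7L3 (127.8 ± 1.97), TIAL1 (99.2 ± 5.97), TIA1 (89.3 ± 5.27), LUC7L2 (68.7 ± 2.12), LUC7L (52.3 ± 1.25) and PRPF39 (24.3 ± 1.43; SD, n = 4 each). Of the 8 pairs of neighbours in this order, the ranges overlapped for TIAL1 and TIA1 alone. In each of the 8 pairs the first gene exceeded the second in 4 of 4 vehicle libraries, a description, since the order was taken from these libraries. The core proteins stood at the top and PRPF39 at the bottom, 2.16-fold below LUC7L. The means with LLY-283 followed the same order, so the rise of PRPF39 left it below LUC7L, at 38.8 ± 5.70 against 45.8 ± 5.11 TPM (SD, n = 4 each).

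**Figure D2:**
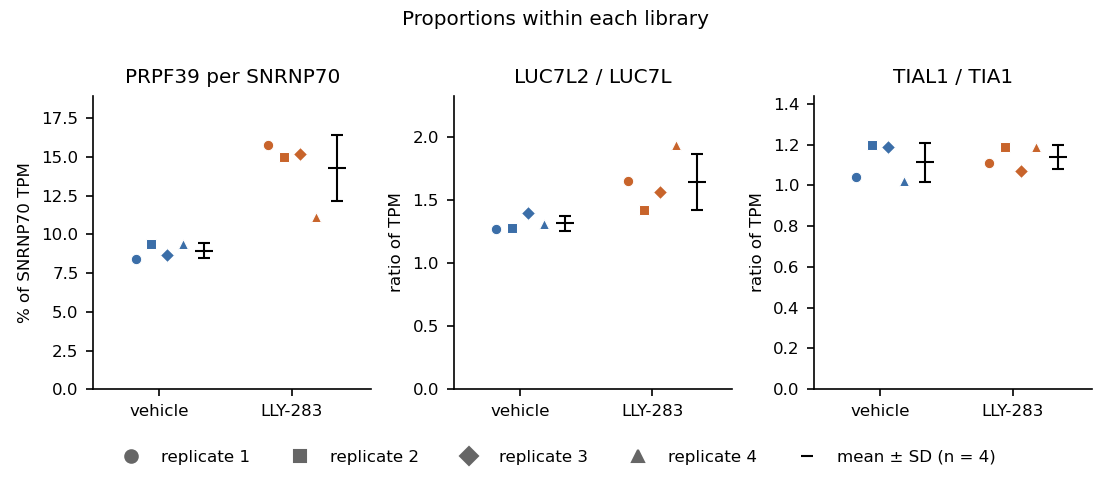
Ratios and percentages of TPM within each library on axes that start at 0, with symbols for replicates 1 to 4 and mean ± SD of 4 libraries. The panels show PRPF39 per SNRNP70 (8.38% to 9.36% with vehicle, 11.1% to 15.8% with LLY-283), LUC7L2 per LUC7L (1.27 to 1.40 and 1.42 to 1.94) and TIAL1 per TIA1, whose groups overlap.

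Features that the selection did not use were shared by some of the 9 genes. At least 1 transcript annotated for nonsense-mediated decay was present in 8 of the 9, all but SNRPC, against 48.1% of 12084 protein-coding genes at a mean of 1 TPM or more, and LUC7L3 had 8 such transcripts. These 8 genes have 10 to 23 annotated transcripts each, against a median of 8 for the protein-coding genes, and a gene with more transcripts has more chances to hold such a transcript. Translation of the GENCODE 44 canonical transcripts gave proteins of 159 (SNRPC) to 669 residues (PRPF39). RS or SR dipeptides, the phosphorylated repeats of many splicing factors, numbered 36 in LUC7L2 and in LUC7L3, 29 in LUC7L and 22 in SNRNP70, and 0 to 3 in the other genes, against a median of 3. Only 0.674% of 20041 proteins held 36 or more, 1.11% held 29 or more and 2.42% held 22 or more. GRG, a sequence often methylated by PRMT5, occurred in none of the 9 proteins and in 14.2% of all proteins, while RGG occurred 3 times in SNRNP70, in none of the other 8 and in 12.5% of all proteins. LUC7L and LUC7L2 were identical at 77.1% of 371 aligned residues, LUC7L and LUC7L3 at 36.8%, and TIA1 and TIAL1 at 81.6%. Among the pairs with the closest sequences, LUC7L and LUC7L2 had log2 fold changes of -0.20 and 0.11, and TIA1 and TIAL1 of -0.03 and 0.01. The groups overlapped for LUC7L2, TIA1 and TIAL1 and did not overlap for LUC7L, which did not pass.

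The remaining genes of the U1 pathway were taken from 4 lists written from general knowledge with earlier results of these data known, so their p-values are not independent of that choice. The 36 genes reported, all of them tested, are not the whole of these lists, so their counts are not read against the shares over all genes. Together, 7 were higher and 4 lower with LLY-283 (19.4% and 11.1%, adjusted p under 0.05, limma), beside 8.61% and 17.6% of all genes tested, and their median log2 fold change was 0.03. With median-of-ratios scaling 15 were higher, while the number over all genes rose from 1247 to 2165, and with quantile normalization 11 were higher, with 1871 over all genes. Without vehicle replicate 4, 4 were higher, with 888 over all genes.

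**Figure D3:**
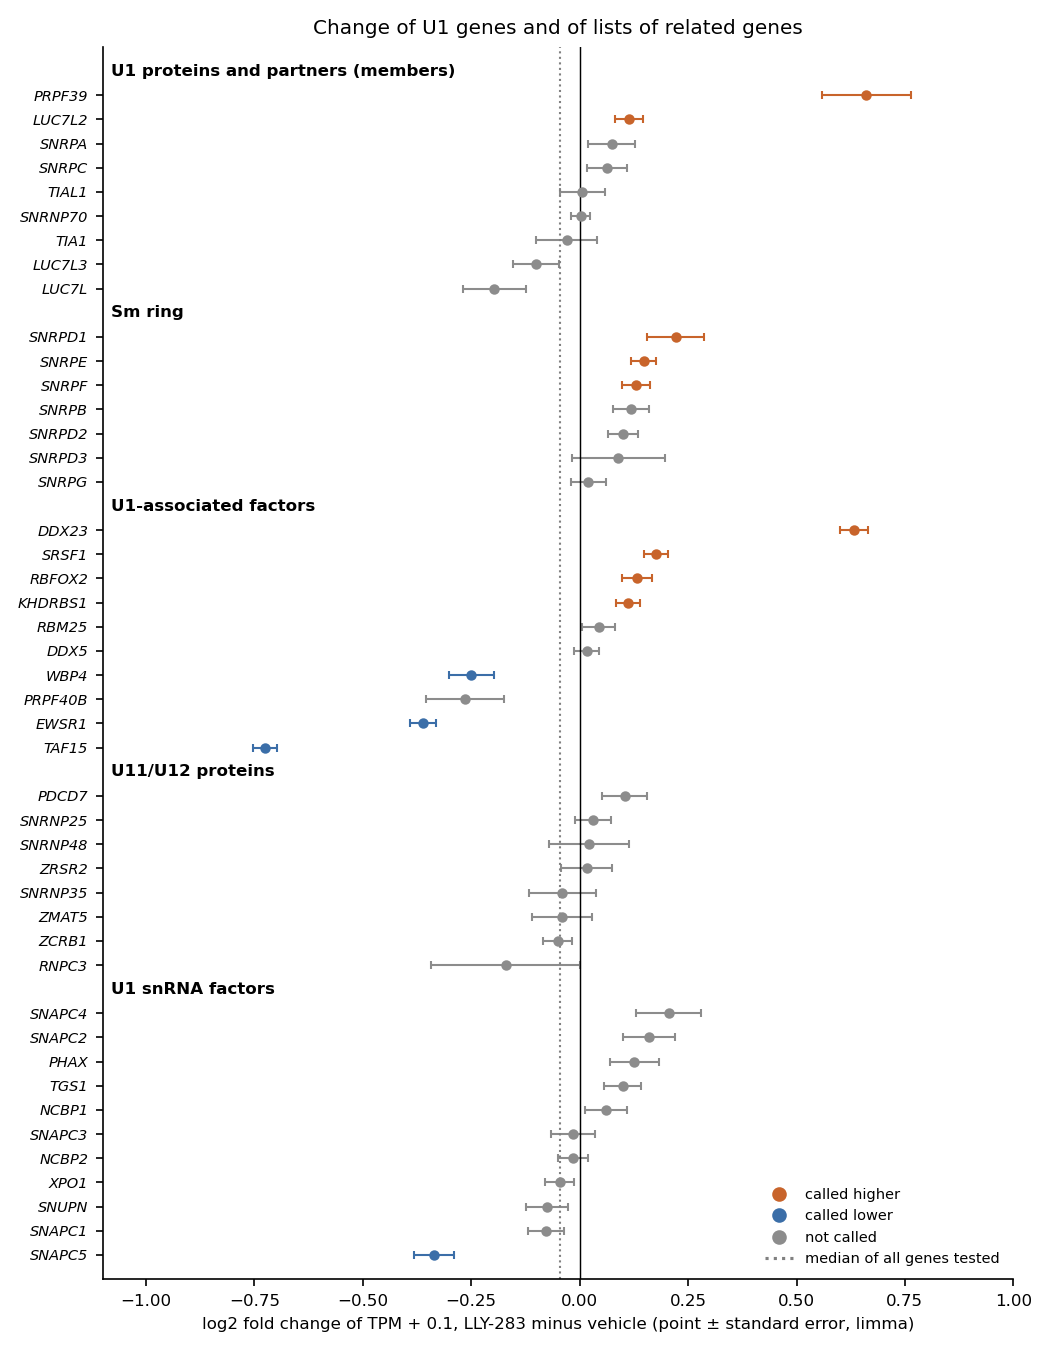
Log2 fold change of TPM + 0.1, LLY-283 minus vehicle, with its standard error (limma, 4 libraries per group) for the 9 genes and the 4 lists, coloured by call, with a dotted line at the median of all genes tested (-0.05). PRPF39, at 0.66, and DDX23, at 0.63, lie farthest to the right and TAF15, at -0.73, farthest to the left.

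The Sm proteins form the ring around the U1 snRNA, and the products of SNRPB, SNRPD1 and SNRPD3 are known substrates of PRMT5. Transcripts of the Sm genes were higher in 3 of 7 cases and lower in none, beside 8.61% and 17.6% of all genes. All 7 fold changes were above 0, with a median of 0.118 on the log2 scale. SNRPE had the smallest p-value, with 290.95 to 306.62 TPM in the vehicle and 324.32 to 344.28 TPM in the LLY-283 libraries (log2 fold change 0.15, adjusted p = 0.0057, limma). SNRPF was also higher (0.13, adjusted p = 0.0162), as was SNRPD1 (0.22, adjusted p = 0.034), although the latter passed in 11 of 20 settings only. SNRPB and SNRPD2 did not pass, but both did with either other scaling, without mitochondrial genes and with the GC and length trend removed. SNRPD3 had overlapping groups (0.09, adjusted p = 0.578, limma) and passed in none of the 20 settings. Of the named PRMT5 substrates, only SNRPD1 was thus among the genes called. SNRPB2, the U2 relative of SNRPA with 69.8% identical residues, was higher (log2 fold change 0.14, adjusted p = 0.00998, limma), and its ratio to SNRPA overlapped between groups at 0.657 ± 0.015 and 0.693 ± 0.078 (SD, n = 4 each).

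Of 10 genes for factors that associate with U1 or with 5′ splice sites, 4 were higher and 3 lower, beside 8.61% and 17.6% of all genes. Their median log2 fold change was 0.03. DDX23, the helicase that helps replace U1 at the 5′ splice site, was at 67.5 ± 1.77 TPM with vehicle and 104.7 ± 2.83 TPM with LLY-283 (SD, n = 4 each; log2 fold change 0.63, adjusted p = 8.52e-06, limma). Its size was close to that of PRPF39, and its LLY-283 values, 102.05 to 108.52 TPM, did not set replicate 4 (105.05 TPM) apart. SRSF1, which promotes U1 binding, was higher (log2 fold change 0.18, adjusted p = 0.00182, limma), with 271.22 to 287.58 TPM in the vehicle and 313.64 to 323.77 TPM in the LLY-283 libraries. WBP4 was lower (-0.25, adjusted p = 0.00762), though not with quantile normalization.

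The transcripts of TAF15 and EWSR1, which encode RNA-binding proteins of which TAF15 is known to associate with U1 snRNP, were both lower. TAF15 went down, 325.1 ± 8.19 TPM with vehicle against 196.5 ± 3.35 TPM with LLY-283 (log2 fold change -0.73, adjusted p = 2.58e-06, limma), as did EWSR1, 355.2 ± 5.47 TPM against 276.5 ± 9.31 TPM (log2 fold change -0.36, adjusted p = 7.51e-05; SD, n = 4 each). These calls and those of DDX23 and SRSF1 held in 20 of 20 settings. KHDRBS1 and RBFOX2, the other factors called higher, were called in 17 and 16 of 20 settings, KHDRBS1 not with the replicate block. PRPF40B was not called, but passed as lower with the GC and length trend removed and without LLY-283 replicate 2.

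No gene of the minor spliceosome's U11/U12 list, which includes factors of the 3′ splice site, passed in either direction among 8 tested (limma, 0 at an unadjusted p under 0.05). Their median log2 fold change was -0.01. PDCD7 passed with median-of-ratios scaling and without vehicle replicate 3. Among 11 genes for the transcription, capping, export and import of U1 snRNA, none was higher. The transcript of SNAPC5, which encodes a subunit of the snRNA-activating complex, was lower. It had 67.28 to 76.34 TPM in the vehicle and 56.15 to 60.49 TPM in the LLY-283 libraries (log2 fold change -0.34, adjusted p = 0.000974, limma). Of these 11 genes, 5 had an unadjusted p under 0.05, beside 38.6% of all genes tested. With median-of-ratios scaling SNAPC2, SNAPC4, PHAX and TGS1 passed as higher, and SNAPC4 and TGS1 also with quantile normalization. SNAPC4 passed as well with the replicate block and without LLY-283 replicate 4, while XPO1 passed as lower with the GC and length trend removed. Over all genes, 8.61% were higher and 17.6% lower.

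The genes whose profile over the 8 libraries was most like that of PRPF39 were found by the root mean square difference of log2(TPM + 0.1), each gene taken relative to its vehicle mean. CLASRP, which encodes a partner of CLK kinases rich in arginine and serine, was nearest at 0.062. It had 64.05 to 67.36 TPM with vehicle and 113.02, 108.15, 103.25 and 82.85 TPM with LLY-283. SREK1, a splicing regulator of the same kind, ranked 5 at 0.101, with 58.57 to 63.48 TPM with vehicle and 102.27, 95.79, 100.25 and 71.83 TPM with LLY-283. SLC25A25-AS1 (0.065), the readthrough gene SLX1B-SULT1A4 (0.073) and the unnamed gene ENSG00000279861 (0.097) lay between them, with LLY-283 means of 2.31, 9.91 and 3.31 TPM. In each of the 5, as in PRPF39, replicate 4 was the lowest of the LLY-283 libraries and above all vehicle libraries. These genes were picked for their likeness, so it is no support for the profile of PRPF39.

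**Figure D4:**
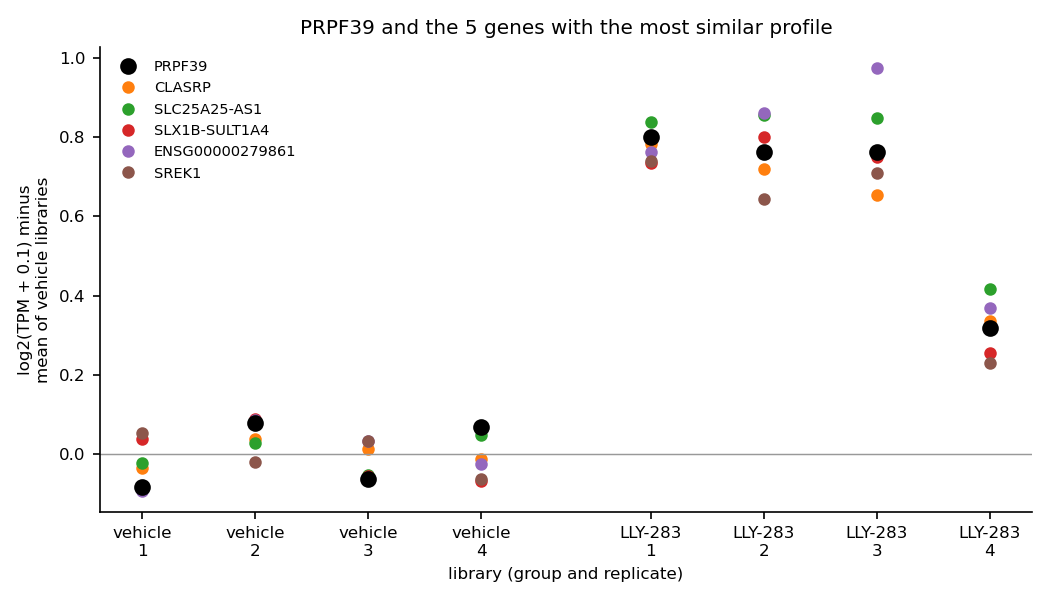
Log2(TPM + 0.1) minus the mean of the vehicle libraries, by library, for PRPF39 (black) and the 5 genes with the most similar profile. All 6 genes lie lower in LLY-283 replicate 4 than in the other LLY-283 libraries and higher there than in any vehicle library.

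LLY-283 replicate 4 stood apart in composition, with 7.19% of its TPM in mitochondrial genes against 10.2% to 11% in the other 7 libraries. It was the lowest LLY-283 library for 5 of the 9 genes and the highest for 2, and the part of its composition in these values was not tested. Without it, PRPF39 and LUC7L2 were still called higher and LUC7L was called lower. Between 24042 and 24757 genes were above 0 in a library, and correlations within groups lay between 0.963 and 0.971. PRMT5 was expressed at 100.0 ± 5.03 and 100.4 ± 4.91 TPM (SD, n = 4 each; log2 fold change 0.01, adjusted p = 0.944, limma), which tests the gene's transcript and not the inhibited enzyme. Of the glial genes checked, VIM (4301 TPM), CD44 (1576 TPM), GFAP (809.5 TPM), NES (482.8 TPM) and SOX2 (103.3 TPM) were well expressed (vehicle means). EGFR was lower, at 23.7 TPM, and S100B lowest, at 4.34 TPM (vehicle means). PTPRC, EPCAM and PECAM1, markers of blood, epithelial and endothelial cells, were at 0.1 TPM or less in every library. Of the 7 glial genes checked, GFAP, NES and SOX2 were lower with LLY-283 (log2 fold changes -0.25, -0.17 and -0.27) and CD44 was higher (0.11; limma, adjusted p from 0.000349 to 0.0168), and the part of this in the values of the U1 genes was not tested.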

How the data were processed

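RNAseq of U251 cells was analysed in 8 libraries, 4 per group. The authors captured poly(A) RNA, ran the RNA-seek pipeline (Cutadapt, STAR on GRCh38, RSEM on GENCODE 41) and deposited TPM per gene, rounded to 2 decimals. The submitters' processing notes name cutadapt 1.18, STAR 2.7.0f and RSEM 1.3.1, while the methods give other releases of STAR and RSEM. Depth is unknown from TPM, so no counting error can be given, and each library sums to 1000000 TPM within rounding.

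Genes at a mean of 1 TPM or more were compared on log2(TPM + 0.1) in limma 3.58.1 under R 4.3.3 (eBayes with trend, no block) and Benjamini-Hochberg adjustment over 14478 genes. A call required an adjusted p under 0.05, and a second rule also a change above 1.5-fold. No library duplicated another. Percentages and ratios are of deposited TPM within a library. Positions and transcripts came from GENCODE 44, promoters from RefSeq, and alignments from Biopython 1.88. Alternatives were pseudocounts of 0.5 and 1, other filters (none, 5 TPM), quantile and median-of-ratios scaling, omission of mitochondrial genes, eBayes without trend, a replicate block, removal of GC and length trends (splines, 4 degrees of freedom) and each library left out.

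The 9 genes and all lists were chosen with earlier results of these data known. Genes named are these 9, PRMT5, in each list the called gene of smallest p in each direction and every call above 1.5-fold, genes overlapping the 9, paralogs, RNU1-1, cell type markers, and the 5 nearest to PRPF39. EWSR1, WBP4, SRSF1, KHDRBS1, RBFOX2, PRPF40B, SNRPF, SNRPD1, SNRPB, SNRPD2, SNRPD3, PDCD7, SNAPC2, SNAPC4, PHAX, TGS1 and XPO1 were named after their values were seen. Some genes of the lists are not reported here and are in no list count.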

Additional observations from a re-analysis of the deposited data

Results flagged for a closer look

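In 102 groups of 4 libraries (51 genes), 3 had a highest or lowest value set apart from the others by more than Dixon's 95% limit, or 2.94%, while chance alone gives about 1 in 20. For PRPF39, LLY-283 replicate 4 had 30.31 TPM against 41.31 to 42.38 TPM in the other LLY-283 libraries. It was the only one of the 3 in that library, which also held the smallest share of mitochondrial transcripts, and the part of that composition in the value was not tested. For RNU1-1, vehicle replicate 1 had 61.31 TPM against 9.91 to 14.27 TPM, and LLY-283 replicate 3 had 19.83 TPM against 4.38 to 5.88 TPM.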

How the results depend on the processing

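PRPF39 kept its direction and its call in all 19 alternatives, with log2 fold changes from 0.615 to 0.775. The number of the 9 genes called higher was 1 without a filter on low values, 1 without mitochondrial genes and 1 with eBayes without trend, because LUC7L2 was lost, and 1 to 2 with each library left out. With the GC and length trend removed and the replicate block, LUC7L2 was lost as well and SNRPC was called higher (0.121), so the number stayed at 2. The number called lower was 1 (LUC7L3) with the GC and length trend removed and 0 to 1 (LUC7L) with each library left out. Of the 36 pathway genes, 15 were higher with median-of-ratios scaling, 11 with quantile normalization and 4 to 8 with each library left out, fewest without vehicle replicate 4. Those lower went from 4 to 3 with quantile normalization, 6 with the GC and length trend removed and 5 without LLY-283 replicate 2. The sign of SNRNP70 turned without mitochondrial genes (-0.0065; -0.0047 to 0.0096 with each library left out), that of TIA1 with median-of-ratios scaling (0.03; -0.073 to 0.024) and that of TIAL1 without mitochondrial genes (-0.0029) or with the GC and length trend removed, with or without the replicate block (-0.025; -0.031 to 0.04 with each library left out). Median-of-ratios scaling and omission of mitochondrial genes move all genes together (median log2 fold change 0.0125 and -0.0568, against -0.0466), so these sign changes follow from the scaling. The causes of the others were not tested.

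Over all genes, 1247 were higher and 2541 lower, against 1871 and 1820 after quantile normalization. Median-of-ratios scaling gave 2165 and 1714 and moved the median log2 fold change from -0.05 to 0.01. Above 1.5-fold, 57 and 504 became 126 and 260 after quantile normalization, 84 and 388 after median-of-ratios scaling, 38 and 313 with a pseudocount of 1, and 25 and 202 at a mean of at least 5 TPM.

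Replicate numbers did not pair the libraries: the correlations of deviations of same-numbered libraries were -0.0409, 0.032, -0.00157 and -0.0851, and 0 of 8 libraries correlated best with its own number. With the replicate block, 2 of the 9 genes were called higher, 0 lower and 1 above 1.5-fold, 8 pathway genes were higher and 4 lower, and over all genes 1095 were higher and 2201 lower. TPM gives no depth, so the smallest change that these libraries could resolve is known only from the spread between replicates.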
